A study of Mus musculus with 14 samples.

Results

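The genes described here are 10 nuclear regulators of mouse chromosome 16: Hmgn1, Chaf1b, Brwd1, Morc3, Setd4, Usp16, Gabpa, Bach1, Ets2 and Son. They were listed by their place between the end genes of the segment triplicated in Dp(16)1Yey/+ mice and by their known function. The rule used no fold change or test, but the list was drawn up with earlier results of these data known, and where several loci share a symbol the 1 with the highest mean was kept. They are 10 of 115 named loci of the region (chr16:75540514-97962622, GRCm38, the assembly also called mm10) and 10 of 59796 loci in the gene table. All 10 passed the filter on low values in both models.

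RNA-seq was performed on embryonic hippocampus at E16 to E18 in 14 libraries. Mice of the Tg(Dyrk1a)189N3Yah line (189N3) carry an extra copy of Dyrk1a alone on a bacterial artificial chromosome, and 3 such libraries were compared with 3 of wild-type littermates. Mice of the Dp(16Lipi-Zfp295)1Yey line (Dp(16)1Yey/+) carry an extra copy of the whole region, and 4 such libraries were compared with 4 of wild-type littermates. Each model is 1 line. The methods describe a cross of heterozygous transgenic mice with C57BL6 for neuron cultures, and the cross behind the RNA-seq embryos and their sex are not given in the sources used here. By the design of the lines, the 10 regulators lie inside the triplicated region of Dp(16)1Yey/+ and outside the fragment added in 189N3.

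DNA in the nucleus is wrapped around histones, and access to it depends on proteins that load histones, loosen or compact nucleosomes, and read or edit the chemical marks on histone tails. DNA-binding factors then recruit or repel the transcription machinery at promoters, and speckle proteins help splice the transcripts. The human counterparts of these genes lie on chromosome 21, and HMGN1, ETS2 and BACH1 are among those most often discussed in Down syndrome.

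The libraries held between 20809135 and 29098454 fragments. A value is the number of fragments of a locus divided by a size factor of its library, called normalized fragments below, and 1 fragment is worth between 0.816 and 1.21 units. Fold changes were tested on log2(value + 1) with limma, each model against its own littermates, and the ± after a fold change is its SE. The labels do not say that each library came from a different embryo, so the p-values measure the spread between libraries. Dyrk1a, the gene added in 189N3, stood at 4688 ± 1042 (SD, n = 3) normalized fragments against 2517 ± 430.03 (SD, n = 3) in littermates, without overlap. The 7 markers of hippocampal and pallial neurons used here all passed the filter, with summed values of 19210 to 29650 in the 14 libraries.

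Some libraries stood apart. Among littermates of Dp(16)1Yey/+, replicates 0 and 1 differed by 1.53 times the sampling noise (median chi-square over loci) and replicates 2 and 3 by 1.81 times, while the other pairs of that group differed by 23.6 to 26.7 times. They were kept as 4 samples, but a difference above sampling noise does not show that they came from 4 embryos. The SEs, intervals and p-values for Dp(16)1Yey/+ below, from every test, count them as 4. They may therefore be too small or too narrow. Results with each pair averaged are given below for the limma fits of loci in Dp(16)1Yey/+ only. The library labelled Dp(16)1Yey/+ replicate 1 had a median log2 difference from its littermates of 0.07 over the rest of the triplicated region (79 loci), against 0.38 to 0.69 in the other 3 libraries of its group, and its Dyrk1a value of 2124 was below all 4 littermates. It also had the highest summed values of progenitor and cycling-cell markers (48446, against 17965 to 31264 in the other 3) and of erythroid markers (48387, against 6139 to 22458). The part of these differences in the results below was not tested, and the results are given with and without this library.

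In Dp(16)1Yey/+ hippocampus, 9 of the 10 regulators averaged above their littermates, and the median of the 10 log2 fold changes was 0.56. An unadjusted limma p-value under 0.05 was reached by 8 of the 10, all of them higher: Hmgn1, Chaf1b, Brwd1, Morc3, Usp16, Gabpa, Bach1 and Son. Over all 36024 loci tested, 1.71% were higher and 1.82% lower at that p-value. For 7 of the 10, every Dp(16)1Yey/+ library lay above every littermate library, against 1.72% of all loci. After Benjamini-Hochberg adjustment over all loci, 0 regulators and 0 loci passed 0.05 with limma (adjusted p = 0.909 for 9 regulators and 0.957 for Ets2) or with edgeR, where 8 regulators again had an unadjusted p-value under 0.05. DESeq2 on the recovered fragments called 8 loci (0.0222%), among them Usp16 (adjusted p = 0.02). That fit counted the nearly alike littermates as separate samples and was not repeated with them averaged.

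**Figure D1:**
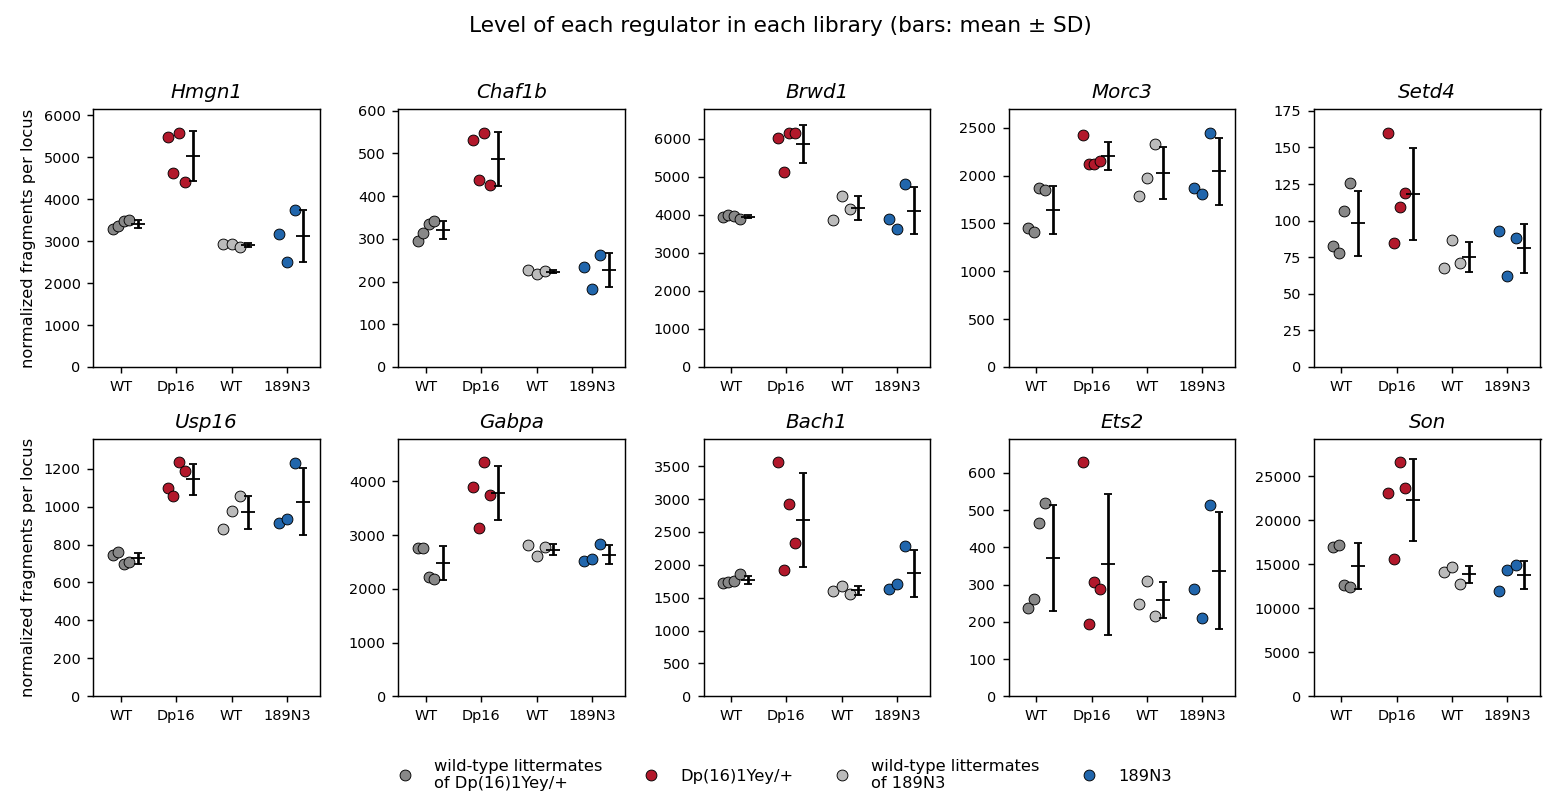
Normalized fragments per locus (vertical axis, from 0) of each of the 10 regulators in the 14 libraries, with 1 point per library and a bar for mean ± SD of each group. The Dp(16)1Yey/+ points lie above those of their littermates for 7 regulators and overlap them for Setd4, Ets2 and Son, whereas the 189N3 points overlap their littermates for all 10.

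The nucleosome and histone assembly genes were Hmgn1 and Chaf1b. Hmgn1 (locus XLOC_021675, chr16:96120618-96127729, minus strand) encodes a protein that binds nucleosomes and counteracts the compaction of chromatin by linker histones. Its normalized fragments were 5486, 4629.9, 5591 and 4415 in Dp(16)1Yey/+ replicates 0 to 3 and 3292, 3363, 3485 and 3504 in littermates. Every transgenic library lay above every littermate, and the littermates were close to each other. The log2 fold change was 0.55 ± 0.14 (95% interval 0.25 to 0.86, limma p = 0.0022; exact permutation p = 0.0286, the smallest that 4 against 4 samples can give). Chaf1b (XLOC_020581, chr16:93883901-93906115, plus strand) encodes the middle subunit of CAF-1, the chaperone that deposits histones H3 and H4 on newly made DNA. It measured 532, 437, 549 and 427 in Dp(16)1Yey/+ and 295, 313, 336 and 341 in littermates, again without overlap. This gave a log2 fold change of 0.59 ± 0.16 (interval 0.25 to 0.94, limma p = 0.00305, exact permutation p = 0.0286).

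Brwd1, Morc3, Setd4 and Usp16 read or modify histones. Brwd1 (XLOC_021671, chr16:95992092-96082526, minus strand) encodes a protein with WD repeats and bromodomains, which bind acetylated histones. Its values were 6034, 5124, 6146 and 6166 in Dp(16)1Yey/+ and 3940, 3989, 3982 and 3899 in littermates. Littermates differed little (SD 41.6) and replicate 1 was the lowest of the transgenic libraries, with no overlap. Its log2 fold change was 0.57 ± 0.13 (interval 0.27 to 0.86, limma p = 0.00127, exact permutation p = 0.0286). Morc3 (XLOC_020580, chr16:93832121-93876073, plus strand) encodes an ATPase of nuclear bodies that binds methylated histone H3. It was measured at 2422, 2119, 2122 and 2151 in Dp(16)1Yey/+ and at 1449, 1409, 1875 and 1849 in littermates. The groups did not overlap, and the nearly alike littermate pairs formed a lower and a higher level. For Morc3 the log2 fold change was 0.43 ± 0.15 (interval 0.09 to 0.77, limma p = 0.0172, exact permutation p = 0.0286). It was 0.36 without littermate replicate 1 and 0.37 without littermate replicate 0, where the unadjusted limma p-value was above 0.05.

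Usp16 (XLOC_020513, chr16:87454703-87483517, plus strand) encodes a deubiquitinase that removes ubiquitin from histone H2A and so opposes Polycomb repressive complex 1. It gave 1098, 1053, 1235 and 1188 normalized fragments in Dp(16)1Yey/+ and 747, 758, 695 and 708 in littermates. No library of either group came near the other group. This was the highest fold change among the 10 regulators, 0.65 ± 0.14 on the log2 scale (interval 0.35 to 0.95, limma p = 0.000608, exact permutation p = 0.0286). Setd4 (XLOC_021634, chr16:93583457-93604063, minus strand) encodes a SET domain protein, the domain found in lysine methyltransferases. It was the lowest of the 10, with 160.2, 84.6, 109 and 119 in Dp(16)1Yey/+ and 82.4, 78.2, 107 and 125 in littermates. The groups overlapped, and replicate 0 was the highest of the 8 libraries. For Setd4 the log2 fold change was 0.25 ± 0.24 (exact permutation p = 0.343), and its interval of -0.26 to 0.77 holds both no change and a ratio of 3 to 2.

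Gabpa, Bach1 and Ets2 bind DNA. Gabpa (XLOC_020502, chr16:84834925-84863779, plus strand) encodes the ETS-domain subunit of GABP, also called nuclear respiratory factor 2, an activator of genes for mitochondrial respiration. It gave 3887, 3127, 4362 and 3752 in Dp(16)1Yey/+ and 2752, 2753, 2215 and 2192 in littermates, without overlap. Its log2 fold change was 0.61 ± 0.16 (interval 0.26 to 0.96, limma p = 0.00282, exact permutation p = 0.0286). Bach1 (XLOC_020516, chr16:87698945-87733346, plus strand) encodes a heme-sensing repressor of antioxidant genes such as Hmox1. Its values were 3563, 1925, 2924 and 2325 in Dp(16)1Yey/+ and 1724, 1744, 1758 and 1865 in littermates. The transgenic libraries were widely spread, yet replicate 1, the lowest of them, still lay above the highest littermate. The fold change was 0.56 ± 0.19 on the log2 scale (interval 0.14 to 0.98, limma p = 0.0132, exact permutation p = 0.0286).

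Ets2 (XLOC_020598, chr16:95702075-95721051, plus strand) encodes an ETS-domain factor that acts downstream of Ras signaling. It was measured at 629, 194, 306 and 289 in Dp(16)1Yey/+ and at 237, 261, 465 and 519 in littermates. Replicate 0 was the highest and replicate 1 the lowest of the 8 libraries, and the groups overlapped throughout. Ets2 was the 1 regulator with a negative fold change, -0.12 ± 0.36 on the log2 scale (interval -0.90 to 0.67), and its sign turned without transgenic replicate 1 (0.13) and without littermate replicate 2 (0.02) or 3 (0.07).

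Son (XLOC_020560, chr16:91647506-91679221, plus strand) encodes a scaffold of nuclear speckles that is needed for the splicing of many transcripts. It had the highest values of the 10, with 23112, 15647, 26625 and 23683 in Dp(16)1Yey/+ and 16939.5, 17166, 12698 and 12461 in littermates. Replicate 1 lay below the higher pair of littermates, so the groups overlapped, while the other 3 transgenic libraries lay above every littermate. The log2 fold change was 0.58 ± 0.20 (interval 0.15 to 1.01, limma p = 0.0128; exact permutation p = 0.0857) and 0.74 without replicate 1.

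**Figure D2:**
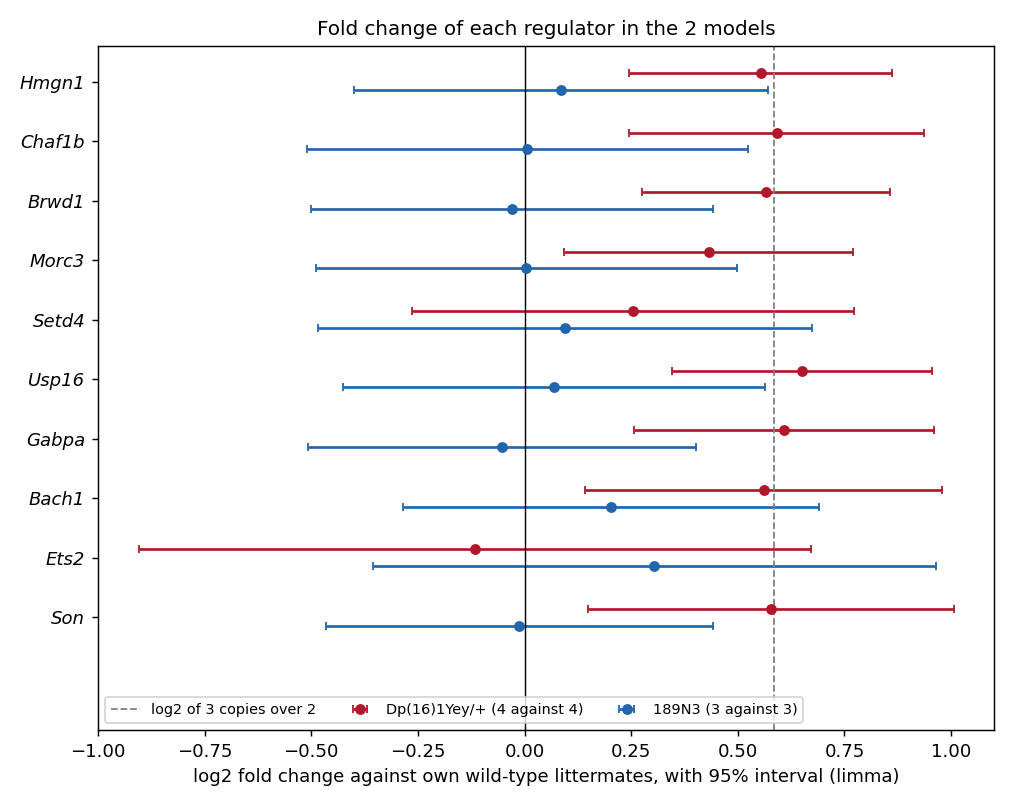
Log2 fold change against own wild-type littermates (horizontal axis) with its 95% limma interval for each regulator in Dp(16)1Yey/+ (4 against 4 libraries) and 189N3 (3 against 3). In Dp(16)1Yey/+ 8 of 10 intervals lie above 0 and all 10 include the log2 of 3 copies over 2 (dashed line, 0.585), while in 189N3 all 10 include 0 and 7 of 10 end below the dashed line.

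The fold changes were recomputed with each library left out. Without the library labelled replicate 1, the same 8 regulators had an unadjusted limma p-value under 0.05 (1.18% of all loci were higher at that p), and the median of the 10 was 0.63. Over the 8 possible omissions the count was 7 or 8 and the median ranged from 0.50 to 0.63. With the nearly alike littermate libraries averaged, the count was 5 (Hmgn1, Chaf1b, Brwd1, Usp16 and Gabpa), against 0.408% of all loci. The unadjusted limma p-value was then 0.0142 for Usp16, 0.0243 for Brwd1, 0.0268 for Gabpa, 0.0313 for Hmgn1 and 0.0325 for Chaf1b. It was 0.0557 for Son, 0.0697 for Bach1 and 0.0856 for Morc3.

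Each transgenic library was also set against the mean of its littermates on the log2 scale. In replicate 0 all 10 regulators were above that mean, with a median of 0.67. In replicate 2 the median was 0.72 and in replicate 3 it was 0.41, with 9 of 10 regulators above the mean in each. In the library labelled replicate 1, 8 of 10 were above it and their median was 0.36, while the rest of the region had 0.07. Within that library Usp16 differed by 0.54, Chaf1b by 0.45, Hmgn1 by 0.44, Morc3 by 0.38, Brwd1 by 0.37 and Gabpa by 0.34. Bach1 at 0.12 and Son at 0.10 were near the littermate mean there, and Setd4 at -0.19 and Ets2 at -0.85 were below it.

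**Figure D3:**
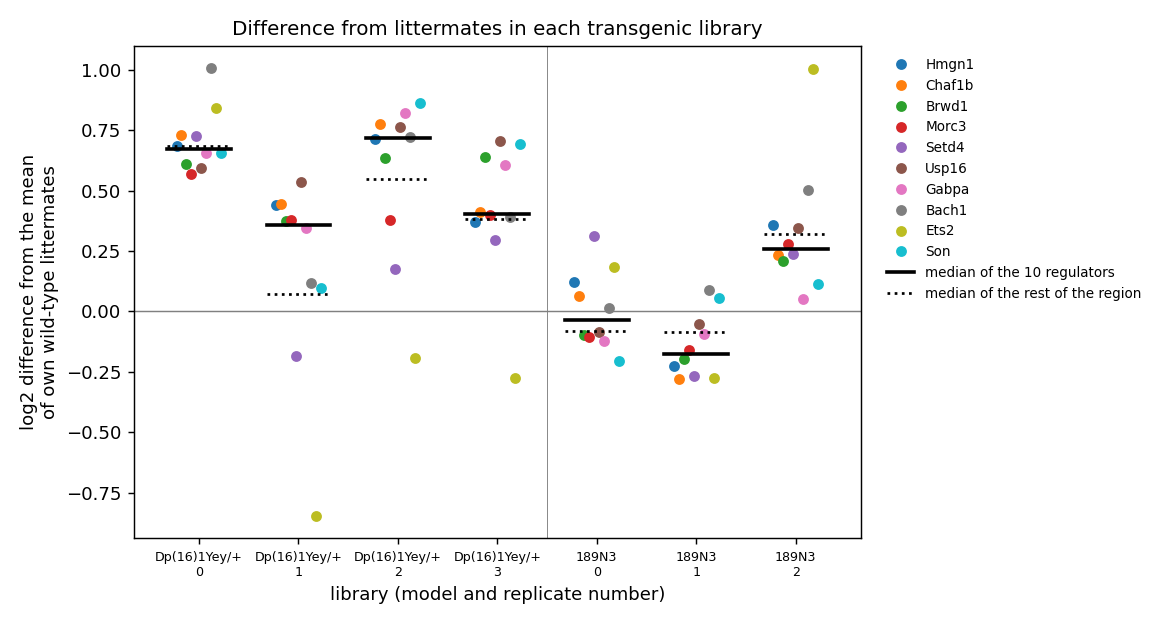
Log2 difference of each regulator from the mean of its own wild-type littermates (vertical axis) in the 4 Dp(16)1Yey/+ and 3 189N3 libraries, with the median of the 10 regulators (solid line) and of the other tested loci of the region (dotted line). In the library labelled Dp(16)1Yey/+ replicate 1 the solid line is at 0.36 and the dotted line at 0.07, and in 189N3 replicate 2 the lines are at 0.26 and 0.32.

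The regulators were then placed among the other tested loci of the region. Of the other 79 loci, 69 were higher in Dp(16)1Yey/+ on average, 30 of them with an unadjusted limma p-value under 0.05 (38.0%), and 23 lay above all littermates (29.1%). Their median log2 fold change was 0.41, and that of all loci tested was 0.03. Ranked from the highest fold change among 89 loci, Usp16 was at 15, Gabpa at 21, Chaf1b at 24, Son at 26, Brwd1 at 27, Bach1 at 31 and Hmgn1 at 34. Morc3 at 44 lay in the middle of the list, and Setd4 at 62 and Ets2 at 80 were in its lower part. No test of the regulators against the rest of the region was made.

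**Figure D4:**
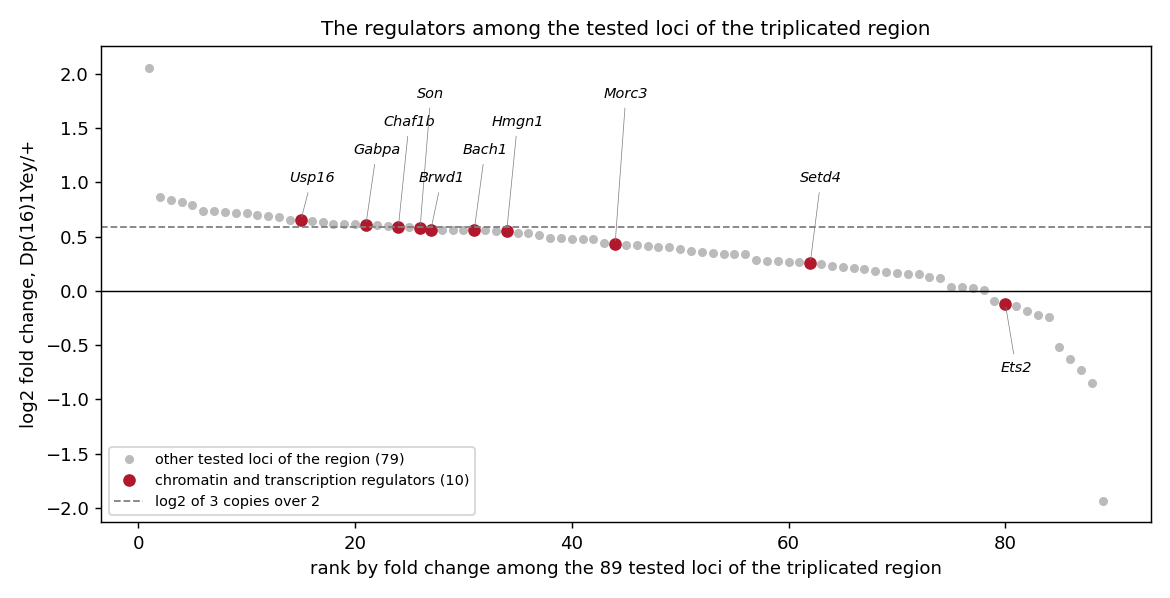
Log2 fold change in Dp(16)1Yey/+ (vertical axis) of the 89 tested loci of the triplicated region in rank order (horizontal axis), with the 10 regulators in red and log2 of 3 copies over 2 as a dashed line. 7 regulators, from Usp16 at rank 15 to Hmgn1 at rank 34, lie close to the dashed line, and Ets2 at rank 80 is below 0.

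A list of 7 other tested nuclear regulators of the region was also examined, and 0 of them had an unadjusted limma p-value under 0.05 in Dp(16)1Yey/+. The list was chosen by hand and is not a full set of the nuclear genes there. Of the 79 tested loci of the region outside the 10, which include these 7, 38.0% were higher at that p-value. Nrip1, a corepressor of nuclear receptors, had a log2 fold change of 0.71 ± 0.37, Erg, an endothelial ETS factor, 0.28 ± 0.24, and Dyrk1a itself 0.22 ± 0.23. Hlcs, which attaches biotin to carboxylases, had 0.18 ± 0.28 and Runx1, a factor of blood development, 0.17 ± 0.32. The oligodendrocyte factors Olig1 and Olig2 had -0.63 ± 0.64 and -0.24 ± 0.52. In bulk tissue, fewer cells of a type and less RNA per cell cannot be told apart. Markers of oligodendrocyte precursors (3 of 3 tested) summed to 342 to 844 in Dp(16)1Yey/+ and 507 to 953 in littermates.

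Genes next to the regulators on the chromosome were compared in the same fit. Usp16 overlaps at its end with Cct8, a chaperonin subunit on the opposite strand, whose log2 fold change was 0.65 ± 0.14. Gabpa overlaps at its start with Atp5j, an ATP synthase subunit on the opposite strand, with 0.61 ± 0.16. Son overlaps at its end with Donson, a replication fork protein, with 0.53 ± 0.19. Psmg1, a proteasome assembly factor 1131 bases from Brwd1, had 0.56 ± 0.18, and Gart, a purine synthesis enzyme 553 bases from Son, had 0.35 ± 0.19. Cbr1, a carbonyl reductase 1789 bases from Setd4, had 0.41 ± 0.21 and Rwdd2b near Usp16 0.56 ± 0.24. Not every neighbor was near these values. App, the amyloid precursor after Gabpa, had -0.18 ± 0.36, Dopey2 before Morc3 -0.14 ± 0.37, and Grik1, a kainate receptor subunit after Bach1, 0.04 ± 0.36. Wrb beside Hmgn1 had 0.34 ± 0.21 and B130034C11Rik before Bach1 0.56 ± 0.18.

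In 189N3, whose regulators have the normal copy number, 0 of the 10 had an unadjusted limma p-value under 0.05 in either direction, against 0.825% of the 35899 loci tested that were higher and 1.05% that were lower (1.87% in all). Adjusted p-values were 1.00 for all 10. The median log2 fold change was 0.04, and the groups overlapped for each regulator, while 1.99% of all loci were higher and 2.99% lower without overlap. DESeq2 called 15 loci in 189N3 (0.0418%), none of them among the 10, and edgeR called 0. Hmgn1 was measured at 3167, 2493 and 3735 in 189N3 and at 2927, 2940.3 and 2868 in littermates (log2 fold change 0.09 ± 0.23). Usp16 was measured at 911, 935 and 1231 in 189N3 and at 880.2, 977 and 1054 in littermates (0.07 ± 0.23). For both, replicate 2 was the highest of the 6 libraries.

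Chaf1b (0.01 ± 0.24), Morc3 (0.00 ± 0.23), Son (-0.01 ± 0.21), Brwd1 (-0.03 ± 0.22), Gabpa (-0.05 ± 0.21) and Setd4 (0.09 ± 0.27) had log2 fold changes below 0.1 in size in 189N3. Bach1 was at 1625, 1712 and 2284 against 1597, 1685 and 1549, which gave 0.20 ± 0.23. Ets2 was at 289, 210.5 and 513 against 249, 309.6 and 215, which gave 0.30 ± 0.31. The upper end of the 95% interval was below the log2 of 3 over 2 for 7 regulators and above it for Setd4 (0.67), Bach1 (0.69) and Ets2 (0.96). In 189N3 replicate 2 all 10 regulators were above the littermate mean (median 0.26), as was the rest of the region (median 0.32), and without it the median of the 10 was -0.07. With 3 against 3 libraries an exact permutation test cannot give a p-value under 0.10.

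Whether the 2 models differed was tested as an interaction, the log2 fold change in Dp(16)1Yey/+ minus that in 189N3. The difference was 0.66 ± 0.22 for Gabpa (interval 0.19 to 1.13), 0.59 ± 0.21 for Brwd1 (0.16 to 1.03) and 0.58 ± 0.22 for Usp16 (0.12 to 1.05). Chaf1b with 0.58 ± 0.24 (0.07 to 1.1) and Son with 0.59 ± 0.27 (0.02 to 1.16) also had an unadjusted limma p-value under 0.05, as had these 3. These were 5 of 10 regulators, against 1.53% of 36045 loci in that direction, 1.12% in the other and 2.66% in all, and 0 passed after adjustment (adjusted p = 0.922 for all 5). Hmgn1 (0.47 ± 0.22, interval -0.01 to 0.94), Morc3 (0.43 ± 0.24, -0.08 to 0.94), Bach1 (0.36 ± 0.28), Setd4 (0.16 ± 0.35) and Ets2 (-0.42 ± 0.54) did not pass. Gabpa and Brwd1 kept an unadjusted p-value under 0.05 in all 14 omissions of a library, Usp16 in 13, Chaf1b in 10 and Son in 5. The count was 3 without 189N3 replicate 0, 189N3 replicate 1, littermate replicate 0 of 189N3 or Dp(16)1Yey/+ replicate 2. The SEs, intervals and p-values of the interaction also count the nearly alike littermates of Dp(16)1Yey/+ as separate samples. Leaving out 1 of such a pair keeps the other, and the interaction was not recomputed with the pairs averaged.

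The level of the regulators was compared per kilobase of exon, with exons of GENCODE vM21 joined. In littermates of Dp(16)1Yey/+, Hmgn1 at 1059 ± 31.4 (SD, n = 4) and Son at 994 ± 174 normalized fragments per kilobase were the highest, and their ranges overlapped. Gabpa followed at 436 ± 55.7, then Morc3 at 303 ± 46.2 and Bach1 at 287 ± 10.2, which overlapped, and Brwd1 at 195 ± 2.05. Usp16 at 76.9 ± 3.20, Chaf1b at 68.6 ± 4.57 and Ets2 at 64.1 ± 24.6 were lower, and the range of Ets2 overlapped those of Usp16 and Chaf1b. Setd4 was the lowest at 18.3 ± 4.11. In Dp(16)1Yey/+ the first places were again held by Hmgn1 (1562 ± 185) and Son (1494 ± 314), and Bach1 (434 ± 116) stood ahead of Morc3 (406 ± 27.0) with overlapping ranges.

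The isoform table divides the fragments of each locus among assembled transcripts. It held 44 isoforms of the 10 regulators, of which 36 passed the filter in Dp(16)1Yey/+. Of these, 31 were higher than in littermates, 16 with an unadjusted limma p-value under 0.05 (1.71% of 60652 isoforms), and 0 were lower at that p. The isoforms of a locus divide its fragments, so these counts are not of separate results. A pair of Brwd1 isoforms had the same values in all groups (0.78 ± 0.25 each), and both are in each count. None of the 16 passed after adjustment (smallest adjusted p = 0.80), whereas 0.0214% of all isoforms did, and in 189N3 0 of 33 tested isoforms had an unadjusted p-value under 0.05 in either direction (1.38% of all isoforms were higher, and 0.0366% passed after adjustment). Chaf1b was carried by 1 annotated isoform with 92.6% ± 2.83 of its fragments in Dp(16)1Yey/+ and 93.5% ± 3.67 in littermates (SD, n = 4), with a log2 fold change of 0.58 ± 0.16. In Morc3 the main isoform held 95.3% ± 2.46 and 96.5% ± 1.33 (0.41 ± 0.14), and in Usp16 it held 93.8% ± 3.16 and 93.1% ± 3.06 (0.66 ± 0.13).

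Hmgn1 was split between a transcript with a changed junction, at 74.8% ± 2.04 in Dp(16)1Yey/+ and 75.2% ± 3.78 in littermates, and the annotated one at 24.9% ± 1.58 and 24.4% ± 3.44. Their log2 fold changes were 0.55 ± 0.12 and 0.59 ± 0.16, and neither overlapped between groups. In Brwd1, 3 of 7 isoforms had a smaller mean share in Dp(16)1Yey/+ than in littermates. The widest gap was that of an isoform with 4.47% ± 1.98 against 8.60% ± 1.09, although the ranges of 3.18% to 7.41% and 7.09% to 9.64% overlapped. The level of this isoform had a log2 fold change of -0.46 ± 0.29. Bach1, Ets2 and Gabpa were divided among isoforms whose shares varied widely between libraries of 1 group, as for the main Bach1 isoform with 51.4% to 94.6% in Dp(16)1Yey/+ and 58.6% to 96.2% in littermates. The 10 Setd4 isoforms were all low, at most 41.2 normalized fragments on average in a group. The Gabpa locus also holds 1 isoform named Jam2 in the authors' map, with 1.25% of the fragments in Dp(16)1Yey/+ and 1.61% in littermates.

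Loci on the opposite strand of the regulators were quantified separately by the authors. Opposite to Setd4 lay 4 loci, with 74.0%, 46.6%, 20.4% and 17.9% of the mean of Setd4. Opposite to Brwd1 lay 1 locus with 38.3% of the mean of Brwd1, opposite to Morc3 1 with 33.0%, and opposite to Hmgn1, Chaf1b and Bach1 1 each with 11.4% to 18%. The Morc3 antisense locus averaged 928 ± 167 normalized fragments in Dp(16)1Yey/+ and 591 ± 83.9 in littermates (SD, n = 4), and the Hmgn1 one 629.5 ± 104 and 421 ± 64.5. Both pairs of groups did not overlap, and the log2 fold changes were 0.64 ± 0.18 and 0.58 ± 0.18. Antisense loci of Brwd1 (0.69 ± 0.23), Chaf1b (0.71 ± 0.28) and Bach1 (0.56 ± 0.26) had overlapping groups, as had all 4 of Setd4 (0.03 to 0.27). The libraries were prepared with a stranded kit, but the strand setting of the counting is not given in the sources used here, so reads of a gene and of its antisense partner may not be separated fully.

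For each regulator, the named loci (mean of at least 100) were searched for the profile over the 14 libraries with the smallest root mean squared log2 difference, after each profile was centered on its own mean. The nearest loci lay mostly in the same region, with 16 of 20 on the triplicated segment, and all profiles share the libraries and their size factors. Brwd1 and Hmgn1 were nearest to Usp25, another deubiquitinase gene (0.11 and 0.12). Usp16 was nearest to N6amt1, a methyltransferase gene (0.12), Morc3 to Sod1, a superoxide dismutase gene (0.10), and Chaf1b to Gart (0.15). Bach1 was nearest to the interferon receptor genes Ifnar1 (0.12) and Ifnar2 (0.13), and Setd4 to Ifnar1 (0.18) and Hdac10 (0.18). Gabpa and Son were both nearest to AK160668, a locus with no coordinates in the annotation used (0.12 and 0.13), and then to Brwd1 (0.13) and Donson (0.13). Ets2 was nearest to Tiam1, a Rac activator gene of the region (0.15), and to Ppp1r26 on chromosome 2 (0.16).

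Genes that work with the regulators but lie elsewhere in the genome were examined in 12 lists. Of 88 genes 85 were tested, and 1 had an unadjusted limma p-value under 0.05 in Dp(16)1Yey/+ and 0 in 189N3, against 3.53% and 1.87% of all loci in either direction. That gene was Nasp, a histone chaperone, with 0.41 ± 0.18 on the log2 scale. For the counts by direction below, 19770 of all 36024 loci tested in Dp(16)1Yey/+ were above 0 and 16254 below 0. No test of a list was made. Without Dp(16)1Yey/+ replicate 0, 16 of the 85 had an unadjusted p-value under 0.05 (5.07% of all loci were higher and 7.58% lower at that p), and without littermate replicate 1 there were 2, while each of the other 6 omissions gave 0.

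In the CAF-1 and chaperone list of 7 tested genes the median was 0.00, and the large CAF-1 subunit Chaf1a had -0.03 ± 0.16. All 3 Hmgn relatives were above 0, with Hmgn5 at 0.49 ± 0.24 and a median of 0.24. Brwd3, the closest relative of Brwd1 by name, had 0.25 ± 0.16 and the list of 4 bromodomain relatives a median of 0.00. The 3 tested Morc genes had a median of -0.15 with Morc4 at -0.23 ± 0.24, and the 7 tested SET domain methyltransferases a median of -0.06 with Setdb1 at -0.16 ± 0.16.

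In the Polycomb repressive complex 1 list, which acts against Usp16, 9 of 12 genes were below 0 (median -0.17), and Ring1 had -0.41 ± 0.21. Summed values of this list overlapped, with 10770 to 14270 in Dp(16)1Yey/+ and 10640 to 13290 in littermates. The 7 other H2A deubiquitinases had a median of -0.14 with Mysm1 at 0.29 ± 0.17. The GABP partners and mitochondrial targets had a median of 0.09 (8 genes), with the partner subunit Gabpb1 at 0.13 ± 0.15 and Tfb1m, a mitochondrial transcription factor, at 0.29 ± 0.21. BACH1 partners had a median of -0.21 (6 genes, Mafg -0.33 ± 0.28) and BACH1 targets a median of -0.06 (8 genes, Slc7a11 -0.31 ± 0.35), and the target Hmox1 had 0.19 ± 0.22. Of 13 ETS family genes 12 were below 0 (median -0.08), with Etv4 at -0.48 ± 0.29. Their summed values overlapped, with 5291 to 8610 in Dp(16)1Yey/+ and 6430 to 7770 in littermates. The 7 speckle partners of Son had a median of 0.05, with Srrm2 at -0.33 ± 0.17. None of these genes other than Nasp had an unadjusted p-value under 0.05.

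In 189N3 the medians of the 12 lists lay between -0.09 and 0.19. The genes with the smallest p-value of their list were Hmgn2 (-0.16 ± 0.23), Hira (0.15 ± 0.26), Brd2 (0.18 ± 0.29), Morc4 (0.34 ± 0.26), Setd1b (0.30 ± 0.28) and Phc1 (0.23 ± 0.23) among the chromatin lists. They were Usp22 (0.41 ± 0.26), Cox5b (-0.28 ± 0.25), Bach2 (0.30 ± 0.25), Slc7a11 (-0.38 ± 0.38), Etv1 (0.47 ± 0.29) and Srrm2 (0.23 ± 0.22) among the others. Among the 7 other nuclear regulators of the region that were listed, Nrip1 (0.68 ± 0.25), Olig2 (0.76 ± 0.29) and Dyrk1a (0.89 ± 0.24) had an unadjusted p-value under 0.05 in 189N3. All 3 markers of oligodendrocyte precursors were above 0 there (median 0.44), 0 of them with an unadjusted p-value under 0.05, and the groups did not overlap for Cspg4. Their sums were 817 to 1775 in 189N3 and 758 to 1160.0 in littermates, and their part in the Olig2 value was not tested.

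Promoter sequences of the regulators were read from RefSeq on GRCm38.p6, and all 10 were matched. ETS factors such as GABPA and ETS2 recognize CCGGAAG, which was searched on both strands. These letters occurred in the promoters of Chaf1b, Setd4, Usp16 and Gabpa, 4 of 10, against 9.12% of 27025 promoters of 300 bases. That share was not matched for base content. The median of G and C letters was 52.7% over all promoters, and the 10 ranged from 52.7% (Morc3) to 80.0% (Brwd1). The first base of the match lay 136 bases before the RefSeq start in Chaf1b, 145 in Setd4, 12 in Usp16 and 93 in Gabpa. The BACH1 element TGACNNNGC, also searched on both strands, occurred in 0 of 10, against 12.5% of promoters. These promoters are shown because 2 of the 10 regulators belong to the ETS family, with the ETS letters in capitals. Each stretch is the 250 bases before the RefSeq start, from 5′ to 3′ along the strand of the gene. In Usp16, Gabpa and Setd4 this start lies inside the GENCODE coordinates given above. All of the Usp16 stretch and most of the Gabpa and Setd4 stretches therefore lie within those coordinates.
Chaf1b, chr16:93883651-93883900, plus strand: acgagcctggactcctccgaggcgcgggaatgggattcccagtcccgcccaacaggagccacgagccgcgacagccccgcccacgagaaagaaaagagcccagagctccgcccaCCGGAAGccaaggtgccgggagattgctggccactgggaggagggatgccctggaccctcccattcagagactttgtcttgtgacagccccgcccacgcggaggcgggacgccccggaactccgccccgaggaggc
Setd4, chr16:93603816-93604065, minus strand: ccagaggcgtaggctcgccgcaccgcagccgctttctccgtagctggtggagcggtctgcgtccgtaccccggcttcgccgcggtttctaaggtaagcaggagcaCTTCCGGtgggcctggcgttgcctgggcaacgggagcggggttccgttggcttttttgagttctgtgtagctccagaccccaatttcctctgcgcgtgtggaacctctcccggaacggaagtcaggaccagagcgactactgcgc
Usp16, chr16:87454735-87454984, plus strand: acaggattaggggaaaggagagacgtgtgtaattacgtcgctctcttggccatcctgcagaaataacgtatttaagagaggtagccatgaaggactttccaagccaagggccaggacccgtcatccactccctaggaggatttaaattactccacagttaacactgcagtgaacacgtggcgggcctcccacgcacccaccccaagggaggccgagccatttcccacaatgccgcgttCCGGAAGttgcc
Gabpa, chr16:84834874-84835123, plus strand: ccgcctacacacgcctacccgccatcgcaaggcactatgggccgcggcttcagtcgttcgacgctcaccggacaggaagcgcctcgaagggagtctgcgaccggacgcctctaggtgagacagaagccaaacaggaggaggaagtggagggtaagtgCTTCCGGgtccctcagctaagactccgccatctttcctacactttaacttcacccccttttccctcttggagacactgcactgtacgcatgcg
The match is a description of the letters and not of a bound site. The 4 genes had log2 fold changes of 0.59, 0.25, 0.65 and 0.61 in Dp(16)1Yey/+, and the promoters of the other 6 held no match in this window.

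Markers of other cell types were measured in the same libraries. In Dp(16)1Yey/+ all 5 tested erythroid markers were above 0 (median 1.25, Slc4a1 1.43 ± 0.65 with an unadjusted p-value under 0.05), with sums of 6139 to 48387 against 4559 to 17127. All 3 skeletal muscle markers (median 1.73, sums of 18.8 to 387 against 12.4 to 45.5) and 6 of 8 progenitor and cycling-cell markers (median 0.06) were above 0 too. Of 12 cell cycle genes 11 were above 0 (median 0.09), with sums of 26389 to 66370 against 28401 to 36366. Neuron markers had a median of -0.30, with 4 of 7 below 0. Their sums of 21790 to 26556 against 19210 to 21874 overlapped, and Neurod6 was at 0.60 ± 0.19 (unadjusted limma p-value under 0.05). Microglia (median -0.18), endothelium and pericytes (-0.49), choroid plexus (0.06), striatum (-0.38) and skin (0.21) had 0 markers with an unadjusted p-value under 0.05. In 189N3 all 5 erythroid markers were lower with an unadjusted p-value under 0.05 (median -1.35), as were 3 of 3 tested skin and 2 of 3 muscle markers. Flt1 of endothelium and Drd1a of striatum were higher at that p-value. Over all loci tested in 189N3, 1.05% were lower and 0.825% higher at that p-value. The part of these cells in the levels of the 10 regulators was not tested.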

How the data were processed

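The 14 RNA-seq libraries of embryonic hippocampus were grouped by the sample labels. Per the methods, the authors aligned paired reads of 100 bases to mm10 with TopHat and Bowtie, and assembled and quantified transcripts with Cufflinks; versions are not given in the sources used here. The signal deposited in the gene table is the fragment number of an assembled locus, scaled by the size factor of its library, and 99.99% or more of the nonzero values in each library were within 0.1 of a whole number of fragments. The signal deposited in the isoform table is on the same scale and was estimated by the authors' tools. The depth of 20809135 to 29098454 fragments means that a locus just past the filter rests on about 10 fragments per library.

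A locus was named from the authors' map where the isoforms of an entry added up to it in every library (51745 loci matched, 20263 named). Coordinates come from GENCODE vM21 and promoters from RefSeq. Values were analysed as log2(value + 1) for loci with a mean of at least 10, which understates the changes of low genes, in limma 3.58.1 (R 4.3.3) with an intensity trend, separately for each model and without covariates. The interaction was fitted over all 4 groups. P-values were adjusted over all loci by the Benjamini-Hochberg method, and unadjusted p-values are descriptions beside the share of all loci. Exact two-sided permutation tests used SciPy 1.17.1. Alternatives to these choices were a replicate block, omission of each library, pseudocounts of 0.1 and 10, and filters at 100 or none. Others were size factors by median ratio, quantiles made equal, no trend, a joint fit, and averaging of nearly alike littermates. Groups that did not overlap were also counted, and counts of recovered fragments were fitted in DESeq2 1.42.0 or edgeR 4.0.16. The gene-level fits with limma, edgeR and DESeq2 were run on simulated data first. The simulated data did not cover the isoform fit, the exact permutation tests or the examination of gaps by Dixon.

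The 10 regulators, the lists and the tests were chosen with earlier results of these data known. Named genes were the 10 regulators, Dyrk1a, the listed other nuclear regulators of the region, and the gene with the smallest p-value of each partner list. The nearest tested gene on each side and the 2 most similar profiles were named too. Chaf1a, Gabpb1, Hmox1 and the markers named were added after their values were seen.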

Additional observations from a re-analysis of the deposited data

Results flagged for a closer look

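In groups of 4 libraries, the highest or lowest value of a gene was examined for a gap to its nearest neighbor that exceeded the 95% critical value of Dixon, as a share of the whole range. Of 22 groups (the 10 regulators and Dyrk1a in Dp(16)1Yey/+ and in their littermates), 2 met it, and chance gives about 1 in 20. Brwd1 was low in the library labelled Dp(16)1Yey/+ replicate 1, with 5124 normalized fragments against 6034 in the next library (gap 0.873 of the range). Morc3 was high in Dp(16)1Yey/+ replicate 0, with 2422 (gap 0.896 of the range).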

How the results depend on the processing

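In Dp(16)1Yey/+, 115 recomputed fold changes of the regulators under other settings kept their direction and their side of an unadjusted p-value of 0.05 and 5 no longer reached it. With a library left out 75 kept both, 2 no longer reached it and 3, all of Ets2, turned sign. The count of regulators at that p was 7 with the replicate block (Morc3 no longer reached it), 7 with quantile normalization (Son) and 5 with nearly alike littermates averaged, where fewer samples were fitted. DESeq2 called 1 regulator after adjustment, against 0 with limma. For isoforms of the regulators the replicate block gave 8, against 16. The partner lists had 1 gene at that p in the main analysis, 2 in 1 fit of all 4 groups, and 0 without a filter, without an intensity trend, with median-ratio size factors, with the replicate block, with edgeR or with littermates averaged. With a library left out they had 0 to 16 (16 without Dp(16)1Yey/+ replicate 0). In 189N3 the partner lists had 0 to 4 with a library left out (4 without 189N3 replicate 1), and isoforms of the regulators 0 to 3 (3 without 189N3 replicate 2) and 1 without an intensity trend. For the interaction the count of 5 was 3 with median-ratio size factors or DESeq2, 2 with the replicate block, and 3 to 7 with a library left out (7 without 189N3 replicate 2). The cause of these changes was not tested. Some signs turned. With a library left out, Ets2 in Dp(16)1Yey/+ ranged from -0.44 to 0.13 on the log2 scale and the interaction of Setd4 from -0.0203 to 0.31. In 189N3 the ranges were -0.0511 to 0.24 for Hmgn1, -0.11 to 0.15 for Chaf1b, -0.15 to 0.0554 for Brwd1, -0.13 to 0.11 for Morc3, -0.0147 to 0.27 for Setd4, -0.0684 to 0.15 for Usp16, -0.0463 to 0.59 for Ets2 and -0.0745 to 0.084 for Son. Brwd1 in 189N3 was 0.014 with median-ratio size factors and 0.0117 with DESeq2, Son 0.0304 and 0.0207 there, and Morc3 -0.0664 with quantile normalization. Replicate numbers are shared between groups, but libraries of the same number did not deviate together, so the numbers were not taken as pairs. Their correlations of deviations from the group means were -0.64 to 0.11 in Dp(16)1Yey/+ and -0.32 to -0.05 in 189N3. Some libraries of different number did deviate together. Dp(16)1Yey/+ replicate 2 had 0.66 and 0.63 with littermates 0 and 1 but -0.63 with littermate 3. Replicate 0 had 0.46 and 0.56 with littermates 2 and 3 but -0.46 and -0.57 with 0 and 1. These littermates form 2 nearly alike pairs, and deviations were taken from the group mean. A value with 1 pair therefore nearly fixes the opposite value with the other, so these are not separate observations. The main fit held no term for libraries that deviated together, and their part in the results was not tested. With a mean of at least 100, Setd4 was not tested in 189N3 or for the interaction.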
